A study of Mus musculus with 20 samples.

Results

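The cytosolic ribosomal proteins are the protein subunits of the ribosomes that translate nuclear messenger RNAs in the cytoplasm. Members were the probe sets whose only platform gene symbol begins with Rpl or Rps and a digit, or is Rplp0, Rplp1, Rplp2 or Rpsa, with S6 kinases and pseudogene symbols left out and the brightest probe set kept for each gene. This gave 35 genes from 49 probe sets, of 8251 genes with a single-symbol probe set. Of the 35 genes, 25 were bright enough to be tested, 11 from the large and 14 from the small subunit. Every count below over tested genes leaves out the other 10.

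Hearts of 20 male mice were profiled, each on its own oligonucleotide array, in 4 groups of 5. Young controls were 5 months old and ate the control diet, and old controls were 30 months old on the same diet. Both supplemented groups were also 30 months old: the alpha-tocopherol group was fed 1000 mg/kg alpha-tocopherol, and the mixed-tocopherol group 500 mg/kg each of alpha- and gamma-tocopherol, both forms of vitamin E, from 15 months of age. All animals are labelled B6/C3H F1 hybrid, except old controls 1 and 4, whose labels lack the F1 mark, and all were given as B6C3F1 in the housing notes. The design compares young with old hearts, and old hearts on either supplement with old hearts on the control diet. The lower dose of alpha-tocopherol and the added gamma-tocopherol cannot be told apart. The samples were whole-heart polyadenylated RNA, so that fewer cells of a type and less RNA per cell cannot be told apart either.

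A ribosome joins a small subunit, which reads the messenger RNA, to a large subunit, which links amino acids, and each subunit holds a single copy of most of its proteins. Transcripts for these proteins are among the most abundant of any cell. As background, most of them begin with a stretch of C and T bases, the terminal oligopyrimidine tract, through which the mTOR pathway controls their translation, and many of their promoters carry the core of ETS-family binding sites. Because heart muscle replaces its proteins throughout life, the level of the translation machinery is often measured in studies of growth and ageing of the heart.

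The start-site windows of 6 members are shown because these genes carry the differences described further on. Each line gives 45 bases before and 15 bases from the RefSeq start of transcription, in the 5′ to 3′ direction of the gene, from the RefSeq promoter table of the build GRCm38.p6. Capitals mark CTTCCG or its reverse complement CGGAAG, the core of ETS-family sites.
Rps28, chr17:33824548-33824607, minus strand: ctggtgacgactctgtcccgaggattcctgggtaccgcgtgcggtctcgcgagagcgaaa
Rps18, chr17:33955651-33955710, minus strand: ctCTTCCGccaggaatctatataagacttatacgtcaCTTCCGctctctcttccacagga
Rpl19, chr11:98026665-98026724, plus strand: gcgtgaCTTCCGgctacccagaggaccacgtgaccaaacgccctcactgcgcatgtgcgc
Rpl37a, chr1:72711215-72711274, plus strand: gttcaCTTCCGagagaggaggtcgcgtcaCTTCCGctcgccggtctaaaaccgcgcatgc
Rps27, chr3:90213634-90213693, minus strand: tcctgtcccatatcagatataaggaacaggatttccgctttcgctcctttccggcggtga
Rps4x, chrX:102189377-102189436, minus strand: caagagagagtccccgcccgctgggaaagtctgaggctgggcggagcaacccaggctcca
Rps18 and Rpl37a each held 2 copies of the core in these 60 bases, Rpl19 held 1, and the other 3 genes held 0. The longest run of C and T crossing the start region was CTCTCTCTTCC in Rps18, 11 bases long, and CTCCTTTCC in Rps27, 9 bases long, both beginning 2 bases before the RefSeq start. Rpl19 had 2 RefSeq start-site windows. The window not shown held no copy of the core and had a longest run of 11 bases, against 5 in the window shown.

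The promoter table was read with a whole chromosome left out, and then held 28 of the 35 members. Of these 28 genes, 19 (67.9%) had CTTCCG on either strand within the whole 300-base window, 250 bases before to 50 after the start. The same 6 letters occurred in the windows of 18.8% of all 27025 genes read from the table. A run of at least 8 C or T bases on the gene's strand within 20 bases of the start was present in 13 of the 28 members (46.4%) and in 23.7% of all genes. Such a run can overlap CTTCCG, whose first 5 letters are C and T. These matches describe letters only, and the arrays measured transcripts, not promoters.

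Levels are on the scale log2(intensity + 58), with the offset set at the 10th percentile of the deposited values. Among tested probe sets the members stood near the top: their means over 20 arrays ran from 9.44 to 16.61 with a median of 14.42, and 16 of 25 were above 14, where 280 of all 7453 tested probe sets lay. Rpl41, which encodes one of the smallest ribosomal proteins, was the brightest member at 16.61 and ranked 11 among all tested probe sets. It was followed by the probe set named Rps24 (15.93), Rps28 (15.75), the stalk protein Rplp0 (15.58) and Rps18 (15.19). A level is a probe set's brightness, so this order does not rank the amounts of the transcripts.

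The 10 untested genes (Rpl7l1, Rpl38, Rpl35a, Rps14, Rps20, Rpl39l, Rpl39, Rps27l, Rps15 and Rpl32) had means of 7.23 to 8.65, under the filter of 8.72 on dim probe sets. Most of these 10 encode core subunits found in every ribosome. Diverged relatives of core subunits (Rps4l, Rpl7l1, Rpl39l and Rps27l) are also taken in by the symbol rule, and of them Rps4l was tested. Spread over the 20 arrays was lowest for Rps3a1 (SD 0.14) and highest for Rps13 (SD 0.57), the dimmest tested member. Ribosomal proteins have many processed pseudogenes, and probe sets cannot separate a gene from a close copy. The brightest Rps24 probe set was designed from the same database record as the Rpl7 probe set, so the name Rps24 is uncertain here, and the other Rps24 probe set had a mean of 9.21. A further 39 probe sets list a ribosomal gene together with other symbols, among them Rps6 and Rplp1, and were not members.

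**Figure D1:**
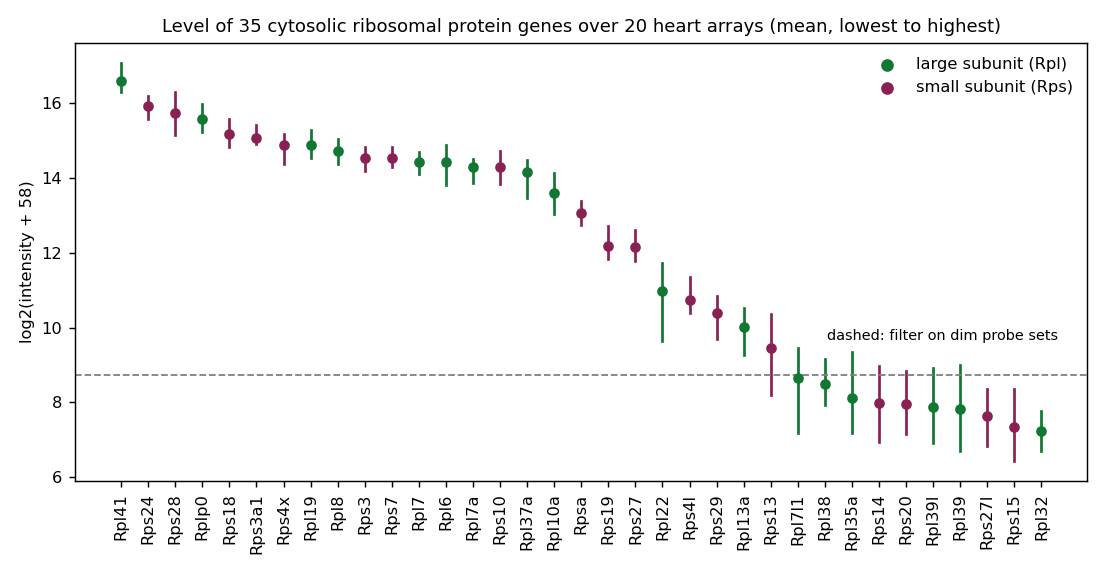
Mean level of each of the 35 ribosomal protein genes over 20 heart arrays, as log2(intensity + 58), with bars from the lowest to the highest array, in order of level. Tested members run from Rpl41 at 16.61 down to Rps13 at 9.44, and the 10 genes on the right have means under the dashed filter line at 8.72.

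Some arrays stood apart. Young control 3 had a summed level of T cell and thymocyte markers (10 genes on the array, 3 tested) of 15.34, against 11.76 to 12.01 in the other young controls and 11.34 to 12.59 in all old animals. Its Cd8a level was 12.45, against 6.62 to 7.08 in the other young controls. The summed level of B cell markers in this heart was 14.90, against 12.78 to 13.17 in the other young controls. For macrophage markers it was 14.79, against 14.20 to 14.47. Old control 3 had a 3′ minus 5′ difference of 1.21 for the Gapdh control probe sets, against -0.17 to 0.19 on the other arrays. The alpha-tocopherol arrays read higher for the bacterial hybridization controls, by 0.85 over old controls, and for 18S ribosomal RNA, by 1.66, with no overlap in either (exact permutation test, p = 0.00794 each, adjusted p = 0.0159 over 8 tests). All 6 cardiomyocyte markers on the array were tested, and their summed level was 18.54 to 19.32 across the 20 hearts.

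On each array the median over the 25 members, after subtracting each gene's mean over all arrays, describes where the set stood. It was 0.06 to 0.29 in young controls, -0.17 to 0.01 in old controls, -0.08 to 0.15 with alpha-tocopherol and -0.10 to 0.00 with mixed tocopherols. Young control hearts had 16 to 23 of the 25 members above the gene's own mean, and old control hearts 5 to 13. The counts were 7 to 15 with alpha-tocopherol and 5 to 13 with mixed tocopherols. Young control 3 was the highest array and old control 4 the lowest. Within groups, the residuals of pairs of members had a median correlation of 0.19 over 20 arrays (300 pairs, -0.68 to 0.78, 207 above 0), where both genes of a pair share the array and its scaling.

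**Figure D2:**
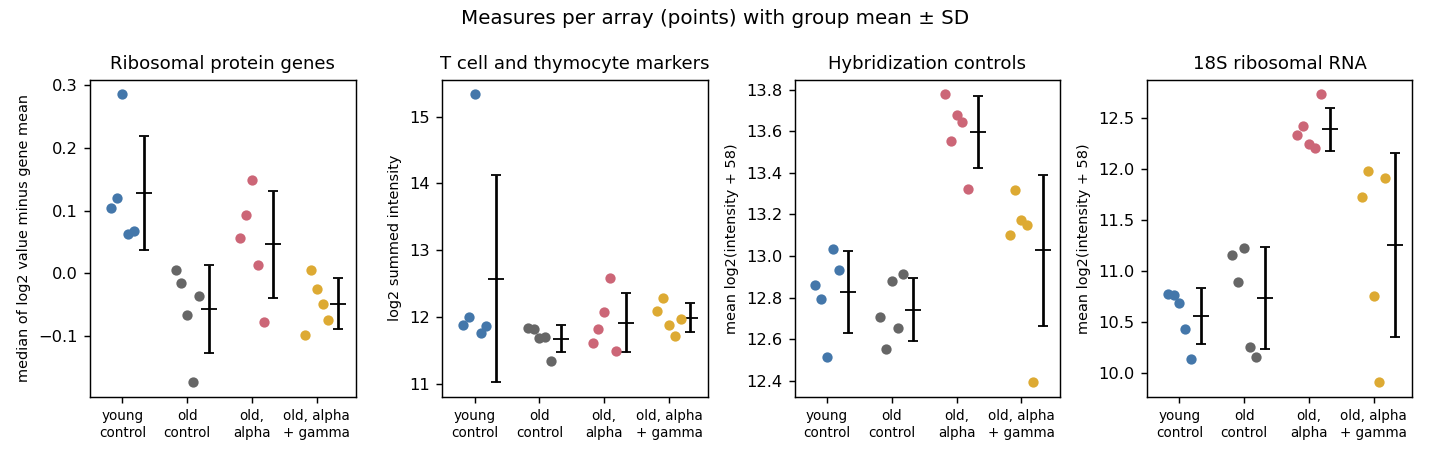
Measures per array, with points for single hearts and the mean ± SD of each group of 5: the median over 25 ribosomal protein genes (log2 value minus gene mean), the log2 summed intensity of T cell and thymocyte markers, and the mean log2(intensity + 58) of hybridization controls and of 18S ribosomal RNA. Young control 3 is highest for the ribosomal genes (0.29) and for the T cell markers (15.34), and the alpha-tocopherol arrays lie above the old controls for both technical measures.

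With age, 5 of 25 ribosomal protein genes fell and 0 rose in old against young control hearts (20%, where 4.94% of all 7453 tested probe sets were called, 2.74% higher and 2.2% lower). A call is an adjusted p below 0.05 from limma with Benjamini-Hochberg adjustment over all 7453 probe sets. The difference was negative for 23 of 25 members, with a median of -0.15 on the log2 scale against 0.01 over all tested probe sets. Large-subunit genes (2 of 11 called lower, median -0.15) and small-subunit genes (3 of 14, median -0.18) were not tested against each other. Among the other 244 tested probe sets above log2 14 that list no ribosomal protein gene, 23 were called lower and 11 higher, with a median of -0.02.

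Rps4x, the X-linked gene of a small-subunit protein, fell with the lowest adjusted p. Its levels were 15.10, 14.97, 15.19, 15.03 and 15.02 in young controls and 14.81, 14.75, 14.62, 14.38 and 14.86 in old controls. Every old control was below every young control. The difference was -0.38 ± 0.08 (SE, n = 5 per group), with a limma adjusted p of 0.00802. The call held in all 20 fits that left out 1 animal and was lost when the 2 compared groups were fitted alone (limma adjusted p = 0.0524). When all probe sets of a gene were averaged, Rps18, Rps28 and Rps3a1 were called with age, and Rps4x was not.

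Rps18, a protein of the small subunit's head that contacts the large subunit, read 15.23, 15.39, 15.59, 15.21 and 15.16 in young controls. Its old control levels were 14.92, 15.02, 15.20, 14.84 and 14.95, so that old control 3 overlapped the young range. The fall was -0.33 ± 0.09 (limma adjusted p = 0.0313). Rpl19, a large-subunit protein that bridges to the small subunit, read 15.08, 15.01, 15.19, 14.98 and 14.97 in young hearts and 14.80, 14.87, 14.76, 14.54 and 14.73 in old ones. These groups did not overlap, and the difference was -0.31 ± 0.08 (limma adjusted p = 0.0346).

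The other 2 called genes lay close to the threshold. Rpl10a, a protein of the mobile stalk that guides used transfer RNA out of the ribosome, read 13.81, 13.85, 14.13, 13.82 and 13.82 in young and 13.58, 13.54, 13.04, 13.30 and 13.60 in old controls, without overlap. Its difference was -0.48 ± 0.14 (limma adjusted p = 0.0458). A dimmer probe set of Rpl10a gave 0.18 ± 0.20 (limma adjusted p = 0.724), the opposite sign. Rps3a1, a small-subunit protein near the exit of the messenger RNA channel, read 15.26, 15.17, 15.42, 15.27 and 15.30 in young and 15.09, 15.07, 15.01, 14.99 and 15.09 in old controls, again without overlap. The difference was -0.23 ± 0.07 (limma adjusted p = 0.0467).

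Near misses were Rps28 (-0.34 ± 0.10, limma adjusted p = 0.0516), Rps3 (-0.30 ± 0.09, adjusted p = 0.0575) and Rpl6 (-0.36 ± 0.11, adjusted p = 0.0673). In Rpl6 all old controls were below all young controls. A second Rps28 probe set was called lower (-0.65 ± 0.13, limma adjusted p = 0.00314) with no overlap, and the dimmest tested one gave -0.28 ± 0.19 (adjusted p = 0.487) with overlap. Among the stalk and surface proteins, Rplp0, which anchors the stalk that recruits elongation factors, differed by -0.15 ± 0.10 (limma adjusted p = 0.463). Rpsa, also known as the laminin receptor precursor, had young levels of 13.03 to 13.38 and old control levels of 12.75 to 13.26, and was not called.

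Rpl22, an RNA-binding large-subunit protein, had the most negative difference, -0.57 ± 0.24, but was not called (limma adjusted p = 0.195). Its old control levels were 10.90, 10.94, 9.64, 11.17 and 11.45, against 11.48, 11.28, 10.97, 11.50 and 11.72 in young controls. Old control 3, the heart with the large Gapdh difference, lay far below the rest. Rpl13a, which also takes part in a translation-silencing complex, had the most positive difference, 0.54 ± 0.21 (limma adjusted p = 0.156). Its young levels were 9.79, 9.72, 10.37, 9.80 and 9.59, and its old control levels were 10.28, 10.20, 10.53, 10.48 and 10.49, so that young control 3 alone reached the old range.

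The count of 5 rests on single animals: without young control 3, old control 1 or old control 4, 1 of 25 members was called, Rps4x in each case. It was 2 without young control 1 or 2, and 3 without young control 5, old control 2, old control 5, alpha-tocopherol animals 1, 2 or 5, or mixed-tocopherol animals 2 or 4. Without young control 3 the median was -0.10, and without both old controls 1 and 4, 0 of 25 were called by limma (12 at an unadjusted p under 0.05, median -0.11), with Rps4x at -0.32 ± 0.08 (adjusted p = 0.0565). With quantile normalization 1 of 25 was called, Rps4x, at a median of -0.15. Endothelial markers were called higher with age in 2 of 7 cases (summed level 13.94 to 14.08 in old and 13.33 to 13.87 in young controls), and their part in the result was not tested.

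**Figure D3:**
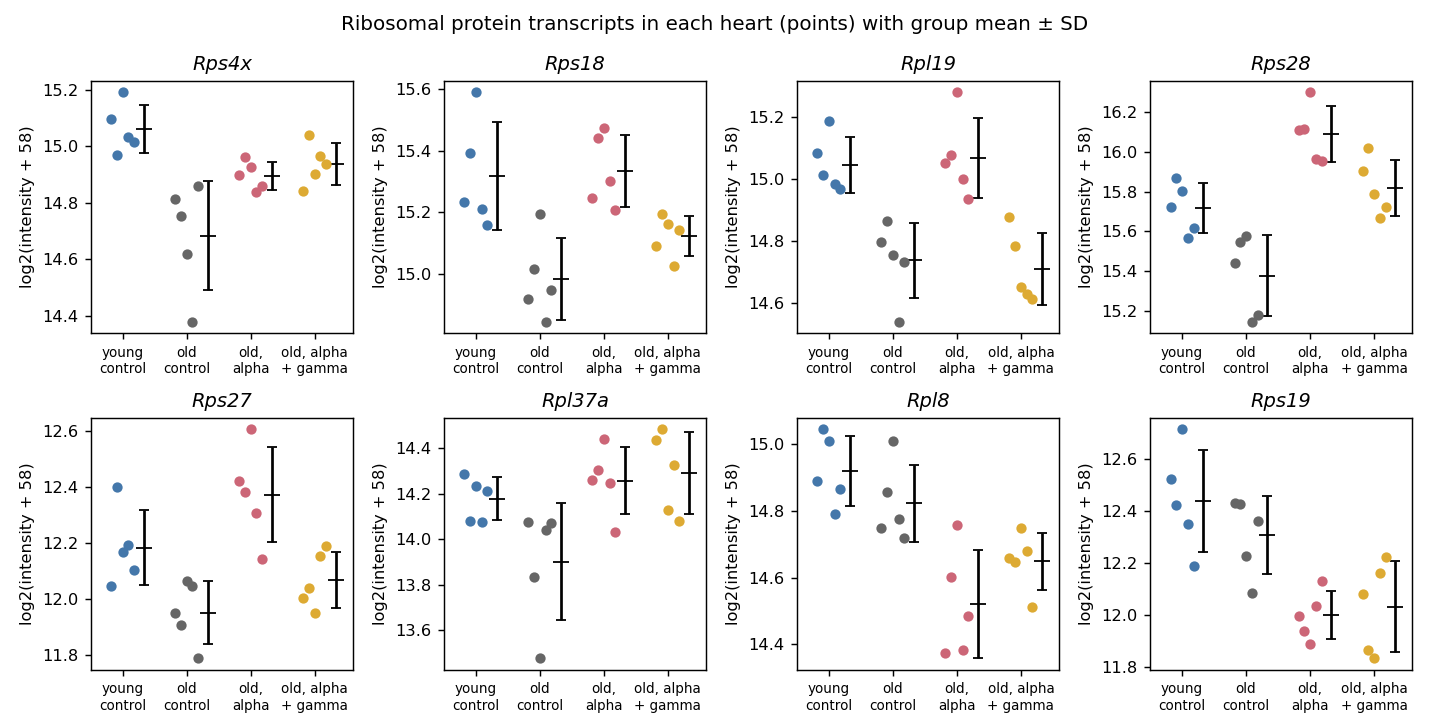
Levels of 8 ribosomal protein genes, as log2(intensity + 58), with points for single hearts and the mean ± SD of each group of 5. Rps4x is lower in all old controls (14.38 to 14.86) than in all young controls (14.97 to 15.19), and Rps28 is higher with alpha-tocopherol (15.95 to 16.30) than in any old control (15.14 to 15.58).

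With alpha-tocopherol, 8 of 25 ribosomal protein genes changed against old controls, 6 higher and 2 lower (32%, where 21.7% of all tested probe sets were called, 8.94% higher and 12.8% lower). The median difference of the members was 0.14, against -0.02 over all tested probe sets. Of the other 244 tested probe sets above log2 14, 61 were called higher and 19 lower (32.8%), with a median of 0.10, so that the other bright probe sets also had more higher than lower calls. Under quantile normalization the split of the members was 3 higher and 4 lower, and the median was 0.04.

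Rps28, a small protein at the small subunit's messenger RNA exit, rose most. Old control levels were 15.44, 15.55, 15.58, 15.14 and 15.18, and alpha-tocopherol levels were 16.11, 16.12, 16.30, 15.97 and 15.95. The groups were far apart, and the alpha-tocopherol hearts also lay above all young controls (15.57 to 15.87). The difference was 0.71 ± 0.10, a fold of 1.64 on the log2(intensity + 58) scale (limma adjusted p = 5.29e-05). Both further tested Rps28 probe sets rose, by 0.47 ± 0.13 (limma adjusted p = 0.0109) and 0.86 ± 0.19 (adjusted p = 0.0025).

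Rps27, a zinc-finger protein of the small subunit, read 11.95, 11.90, 12.06, 12.05 and 11.79 in old controls and 12.42, 12.38, 12.61, 12.31 and 12.14 with alpha-tocopherol. The groups did not overlap and differed by 0.42 ± 0.10 (limma adjusted p = 0.00361). Rpl19 rose by 0.33 ± 0.08 (limma adjusted p = 0.00753), with alpha-tocopherol levels of 15.05, 15.08, 15.28, 15.00 and 14.94 against the old controls given above. These levels overlapped those of the young controls and lay above every old control. A dimmer Rpl19 probe set differed by 0.55 ± 0.45 (limma adjusted p = 0.394). Rps18 rose by 0.35 ± 0.09 (limma adjusted p = 0.00758) without overlap, with levels of 15.25, 15.44, 15.47, 15.30 and 15.21. The age and supplement differences share the 5 old controls, so that lower old controls move both.

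Rpl37a, a zinc-finger protein of the large subunit, read 14.08, 13.83, 13.48, 14.04 and 14.07 in old controls and 14.26, 14.30, 14.44, 14.25 and 14.03 with alpha-tocopherol. Alpha-tocopherol animal 5 lay among the old controls, and old control 3 was the lowest. The difference was 0.36 ± 0.11 (limma adjusted p = 0.0278). Rpl41 read 16.63, 16.45, 16.59, 16.44 and 16.50 in old controls and 16.87, 16.80, 17.09, 16.56 and 16.73 with the supplement, overlapping, with a difference of 0.29 ± 0.10 (limma adjusted p = 0.039) that turned to -0.04 under quantile normalization. Calls of Rpl37a, Rpl41 and Rps19 held in 16, 14 and 13 of the 20 fits that left out an animal, and those of the other 5 genes in all 20. When all probe sets of a gene were averaged, Rpl19 was not called with alpha-tocopherol, and Rps4x was.

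The lower genes were Rpl8, which lies at the peptide-joining centre of the large subunit, and Rps19, which is needed to mature the small subunit. Rpl8 read 14.75, 14.86, 15.01, 14.78 and 14.72 in old controls and 14.37, 14.60, 14.76, 14.38 and 14.48 with alpha-tocopherol. Alpha-tocopherol animal 3 alone reached the old control range, and the difference was -0.30 ± 0.09 (limma adjusted p = 0.0154). Rps19 read 12.43, 12.43, 12.23, 12.08 and 12.36 in old controls and 11.997, 11.94, 11.89, 12.04 and 12.13 with the supplement. Old control 4 lay among the supplemented hearts, and the difference was -0.31 ± 0.11 (limma adjusted p = 0.0438).

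Members without a call included Rps4x at 0.21 ± 0.08 (limma adjusted p = 0.0722), although a dim second Rps4x probe set rose by 2.02 ± 0.41 (adjusted p = 0.00127). Rplp0 varied little with alpha-tocopherol, at 15.45 to 15.48 in all 5 hearts, against 15.32 to 15.97 in old controls. Its difference was -0.16 ± 0.10 (limma adjusted p = 0.262). Rps7, a protein that acts in small-subunit assembly, was lower in every supplemented heart (14.30 to 14.47) than in every old control (14.50 to 14.85), and was not called at -0.20 ± 0.10 (limma adjusted p = 0.129).

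The hybridization controls and 18S did not overlap between these groups, and fits with either as a covariate had wider errors. When the level of the hybridization controls was added to the fit, 0 of 25 members were called by limma (4 at an unadjusted p under 0.05) and 144 of all tested probe sets. With the 18S level in its place, 0 of 25 members were called (5 at an unadjusted p under 0.05) and 142 of all tested probe sets. The Rps28 difference was 0.66 ± 0.17 (limma adjusted p = 0.0538) in the former fit and 0.44 ± 0.14 (limma adjusted p = 0.104) in the latter. Rps27 was at 0.45 ± 0.17 and 0.42 ± 0.15, and Rpl8 at -0.34 ± 0.15 and -0.31 ± 0.14, about as large as without a covariate. The median difference of all 25 members was 0.03 with the hybridization covariate and 0.14 with 18S, against 0.14 without a covariate. Rpl19 was at 0.28 ± 0.15 and 0.20 ± 0.13. The Rps19 difference changed sign with the hybridization covariate, from -0.31 to 0.03. Of cell type markers, 3 of 6 cardiomyocyte genes were called higher with alpha-tocopherol (summed level 19.06 to 19.32, against 18.78 to 19.10 in old controls) and 5 of 8 fibroblast genes lower and 1 higher (summed level 15.74 to 16.38, against 16.07 to 16.20). Macrophage genes were lower in 3 of 6 cases (13.64 to 14.52, against 14.55 to 14.70). Liver genes were lower in 2 of 3 cases (9.64 to 10.64, against 11.52 to 14.22) and endothelial genes in 2 of 7 (13.32 to 13.85, against 13.94 to 14.08), neither with overlap in the summed level. Of skeletal muscle genes 2 of 4 were higher and 1 lower (14.22 to 14.69, against 14.29 to 15.02), and of B cell genes 1 of 3 was higher (12.20 to 13.91, against 12.40 to 12.80). The part of these cell markers in the result was not tested. Without old control 2 or alpha-tocopherol animal 3, 5 of 25 members were called, and without both old controls 1 and 4 the count was 4.

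With mixed tocopherols, 2 of 25 ribosomal protein genes rose against old controls and 0 fell (8%, where 6.43% of all tested probe sets were called, 2.67% higher and 3.76% lower). The median difference was -0.01, equal to that over all tested probe sets at 2 decimals. Rps28 rose again, with levels of 15.90, 16.02, 15.79, 15.67 and 15.72, all above the old controls. The difference was 0.44 ± 0.10 (limma adjusted p = 0.0118). It was called in all 20 fits that left out 1 animal, but not without both old controls 1 and 4 (0.39 ± 0.11, limma adjusted p = 0.0768), nor when all probe sets of a gene were averaged, where Rpl37a alone was called. A second Rps28 probe set was higher in every mixed-tocopherol heart than in every old control, and its difference of 0.30 ± 0.13 was not called (limma adjusted p = 0.155). The dimmest tested one gave 0.28 ± 0.19 (limma adjusted p = 0.388) with overlap.

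Rpl37a was the other called gene, with levels of 14.43, 14.48, 14.13, 14.32 and 14.08 and a difference of 0.39 ± 0.11 (limma adjusted p = 0.0412). All 5 values lay above the old controls, although the lowest equalled the highest old control at 2 decimals (14.08). Rps4x, next by p-value, differed by 0.25 ± 0.08 (limma adjusted p = 0.0712), with supplemented levels of 14.84 to 15.04. Rpl13a was lower in every mixed-tocopherol heart (9.57 to 10.08) than in every old control (10.20 to 10.53), and at -0.52 ± 0.21 was not called (limma adjusted p = 0.141). Without old control 2, old control 3, or mixed-tocopherol animal 1, 2 or 4, 1 of 25 members was called, Rps28 each time. Of cell type markers, 4 of 8 fibroblast genes were called lower with mixed tocopherols and 1 higher (summed level 15.62 to 16.28, against 16.07 to 16.20 in old controls). Endothelial genes were lower in 3 of 7 cases (13.61 to 13.76, against 13.94 to 14.08) and liver genes in 2 of 3 (9.60 to 10.51, against 11.52 to 14.22), both without overlap. Macrophage genes were lower in 1 of 6 cases and skeletal muscle genes higher in 1 of 4, and 0 of 6 cardiomyocyte genes were called by limma. The part of these markers in the result was not tested.

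Between the supplements, 0 of 25 members were called by limma (0%, where 0.564% of all tested probe sets were called, 0.309% higher and 0.255% lower in the mixed group), and 7 had an unadjusted p under 0.05. The median difference, mixed minus alpha, was -0.08, against 0.01 over all tested probe sets and -0.11 over the 244 other bright ones. Rpl19 came closest: its mixed-tocopherol levels of 14.88, 14.78, 14.65, 14.63 and 14.61 were all below the alpha-tocopherol levels. That difference was -0.36 ± 0.08 (95% interval -0.53 to -0.18, limma adjusted p = 0.0511). The dimmer Rpl19 probe set gave 0.39 ± 0.45 (limma adjusted p = 0.713), the opposite sign. Rps27 differed by -0.31 ± 0.10 (interval -0.51 to -0.10, limma adjusted p = 0.126) and Rps28 by -0.27 ± 0.10 (interval -0.48 to -0.06, limma adjusted p = 0.192).

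Rps18 was lower in every mixed-tocopherol heart (15.03 to 15.19) than in every alpha-tocopherol heart (15.21 to 15.47), at -0.21 ± 0.09 (limma adjusted p = 0.247). The hybridization controls read 0.57 lower and 18S 1.14 lower in the mixed group (exact permutation p = 0.00794 each, adjusted p = 0.0159 over 8 tests). With these measures as covariates in turn, the Rpl19 difference was -0.32 ± 0.12 (limma adjusted p = 0.302) and -0.27 ± 0.11 (limma adjusted p = 0.544). Without young control 3, old control 3, or mixed-tocopherol animal 1 or 2, 1 of 25 members was called, Rpl19.

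**Figure D4:**
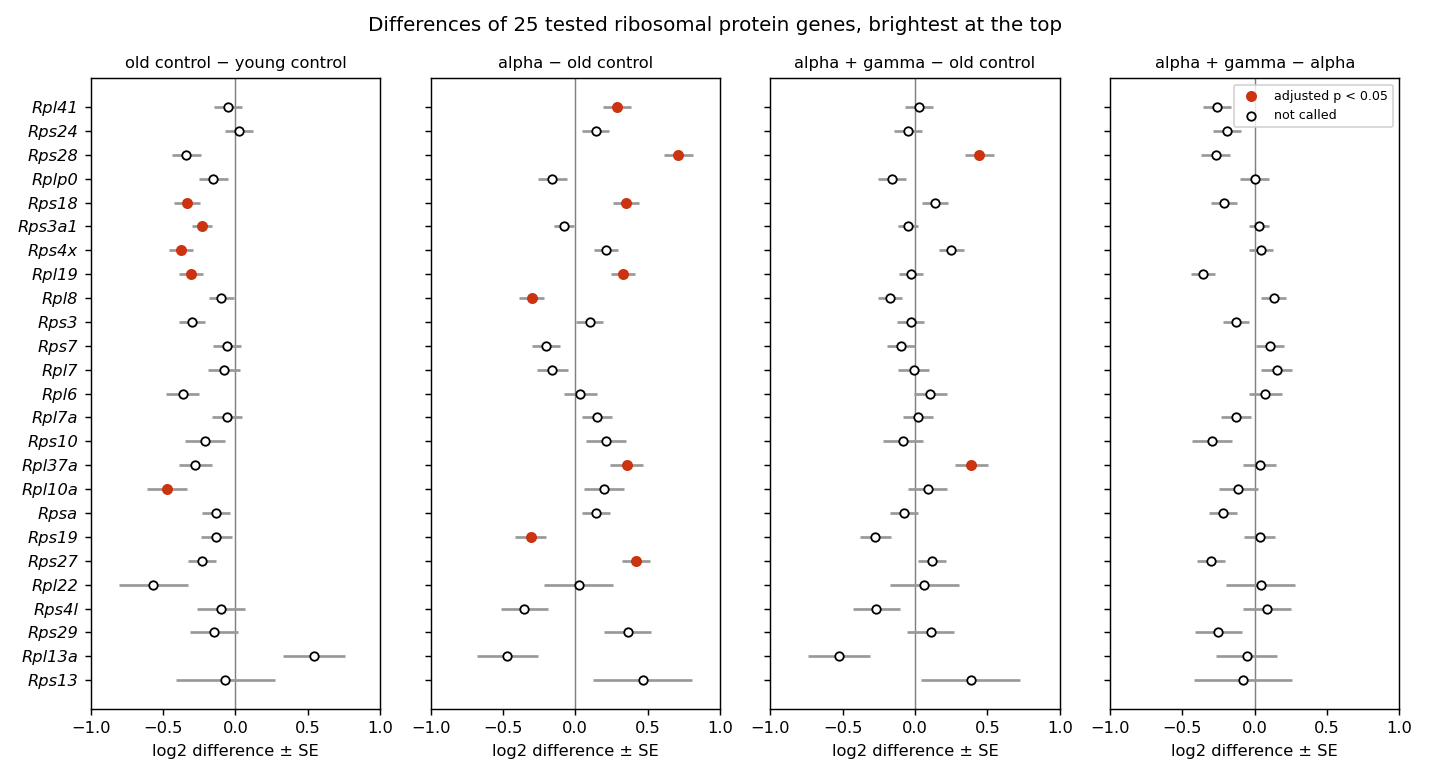
Differences of log2(intensity + 58) for the 25 tested ribosomal protein genes in 4 comparisons of 5 against 5 hearts, with points at the fitted difference and bars of 1 standard error, ordered by level. Filled points passed an adjusted p of 0.05: 5 genes with age, all lower, 8 with alpha-tocopherol, of which Rpl41 turned from 0.29 to -0.04 under quantile normalization, 2 with mixed tocopherols and 0 between the supplements. Of the alpha-tocopherol calls, Rps19 turned from -0.31 to 0.03 with the hybridization covariate.

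Genes that work with the ribosome were read from fixed lists, whose shares of calls stand beside the shares over all tested probe sets (4.94% with age, 21.7% with alpha-tocopherol and 6.43% with mixed tocopherols). Of 5 tested elongation factors, 2 fell with age, 2 rose with alpha-tocopherol (40% in each) and 1 rose with mixed tocopherols (20%). Eef2, which moves the ribosome along the messenger RNA, read 15.14, 15.03, 14.94, 14.81 and 14.92 in young and 14.33, 14.39, 14.31, 14.11 and 14.34 in old controls, far apart. Its difference of -0.67 ± 0.08 (limma adjusted p = 9.35e-06) exceeded in size that of every called member. Eef1a1, which delivers aminoacyl transfer RNA, fell by 0.69 ± 0.18 (limma adjusted p = 0.0311), a call lost without young control 1, 3 or 5 (limma adjusted p = 0.0619, 0.0745 and 0.0623). Old control 3 was low for Eef1a1, at 13.90 against 14.94 to 15.17 in the other old controls. Eef2 rose with alpha-tocopherol (0.51 ± 0.08, limma adjusted p = 0.000102) and with mixed tocopherols (0.31 ± 0.08, adjusted p = 0.0194), the latter call lost without old control 4 or mixed-tocopherol animal 1 (adjusted p = 0.0544 and 0.0555). The exchange factor Eef1d was called higher with alpha-tocopherol (0.56 ± 0.20, limma adjusted p = 0.0441), where old control 3 alone was low (11.06, against 12.05 to 12.34 in the others). Without that heart the Eef1d difference was 0.33 ± 0.15 (limma adjusted p = 0.121), and the call held in 10 of the 20 fits that left out an animal.

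Of 24 tested initiation factors, 1 fell with age (4.17%), the helicase cofactor Eif4b (-0.78 ± 0.19, limma adjusted p = 0.0171). With alpha-tocopherol 1 was called higher and 2 lower (12.5%): the eIF3 subunit Eif3f (1.06 ± 0.34), Eif3m (-0.47 ± 0.14) and Eif1ax (-0.36 ± 0.13). Their calls held in 17, 16 and 10 of the 20 fits that left out an animal, and Eif1ax was at -0.06 ± 0.18 with the 18S covariate (limma adjusted p = 0.898). With mixed tocopherols the helicase Eif4a2 was called higher (0.35 ± 0.10, limma adjusted p = 0.042, 4.17% of the list), in 12 of the 20 such fits. In the mTOR and S6 kinase list 3 of 14 tested genes fell with age (21.4%): Eif4ebp1, which holds back the cap-binding factor eIF4E (-0.70 ± 0.13), and the stress-response genes Sesn1 (-0.61 ± 0.14) and Ddit4 (-1.02 ± 0.24). With alpha-tocopherol Akt2 (0.49 ± 0.15) and Eif4ebp2 (0.40 ± 0.09) rose and Sesn1 (-0.73 ± 0.14) fell (21.4%), and the call of Akt2 was lost without old control 4, old control 5 or alpha-tocopherol animal 3 (limma adjusted p = 0.0642, 0.0516 and 0.072). No mTOR-list gene was called with mixed tocopherols (0 of 14 by limma, 2 at an unadjusted p under 0.05).

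Genes of ribosome assembly and ribosomal RNA synthesis gave 1 lower call of 25 tested with age (4%), the nucleolar protein Ncl (-0.45 ± 0.09, limma adjusted p = 0.00404). With alpha-tocopherol 6 fell and 1 rose (28%). The lowest adjusted p-values were those of Ebna1bp2 (-0.92 ± 0.20), Rrs1 (-0.74 ± 0.16) and Ncl (-0.41 ± 0.09), all nucleolar factors of large-subunit assembly or ribosomal RNA processing. With mixed tocopherols 3 fell and 2 rose (20%), among them the ribosomal RNA methyltransferase Fbl (-0.46 ± 0.11), Ncl (-0.37 ± 0.09) and the polymerase I factor Rrn3 (0.64 ± 0.15). That Ncl call was lost without mixed-tocopherol animal 2 or 4 (limma adjusted p = 0.0531 and 0.05). Of 8 other transcripts with a terminal oligopyrimidine tract, 1 was called in any comparison, Btf3 with alpha-tocopherol (0.45 ± 0.15, limma adjusted p = 0.0366, 12.5% of the list), in 15 of the 20 fits that left out an animal. Of the 12 alpha-tocopherol calls named in these lists, 2 held with the hybridization covariate, Eef2 and Sesn1, and 0 with the 18S covariate. Fau, which encodes the small-subunit protein eS30 and lies outside the symbol rule, was tested and not called in any comparison. Between the supplements limma called 0 genes of these lists, with 1 elongation factor, 3 initiation factors, 4 mTOR genes, 7 assembly genes and 1 other tract-bearing transcript at an unadjusted p under 0.05.

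The proteins of the mitochondrial ribosome, a separate machine that translates mitochondrial messenger RNAs, had other counts. Of 59 tested genes, 8 rose and 0 fell with age (13.6%, median difference 0.26), where 5 cytosolic members fell (median -0.15). Of all tested probe sets, 2.74% were called higher and 2.2% lower with age. With alpha-tocopherol 2 rose and 19 fell (35.6%, median -0.23), and with mixed tocopherols 0 rose and 12 fell (20.3%, median -0.14). Lower calls also outnumbered higher ones over all tested probe sets. The shares there were 12.8% lower and 8.94% higher with alpha-tocopherol, and 3.76% lower and 2.67% higher with mixed tocopherols. The difference between the cytosolic and mitochondrial sets was not tested. The 35 tested probe sets that list a ribosomal gene with further symbols gave 2 lower calls with age (5.71%, against 4.94% of all tested probe sets, median -0.13). With alpha-tocopherol they gave 7 higher and 3 lower calls (28.6%, against 21.7%, median 0.06). With mixed tocopherols 1 was called higher and 1 lower (5.71%, against 6.43%), and between the supplements 1 was called lower (2.86%, against 0.564%). Their share with age was near that of all probe sets. The difference was negative for 26 of these 35, and their median lay near that of the members (-0.15). The members' share was 20% in the reported fit and 4% under quantile normalization. These probe sets and the members were not tested against each other.

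**Figure D5:**
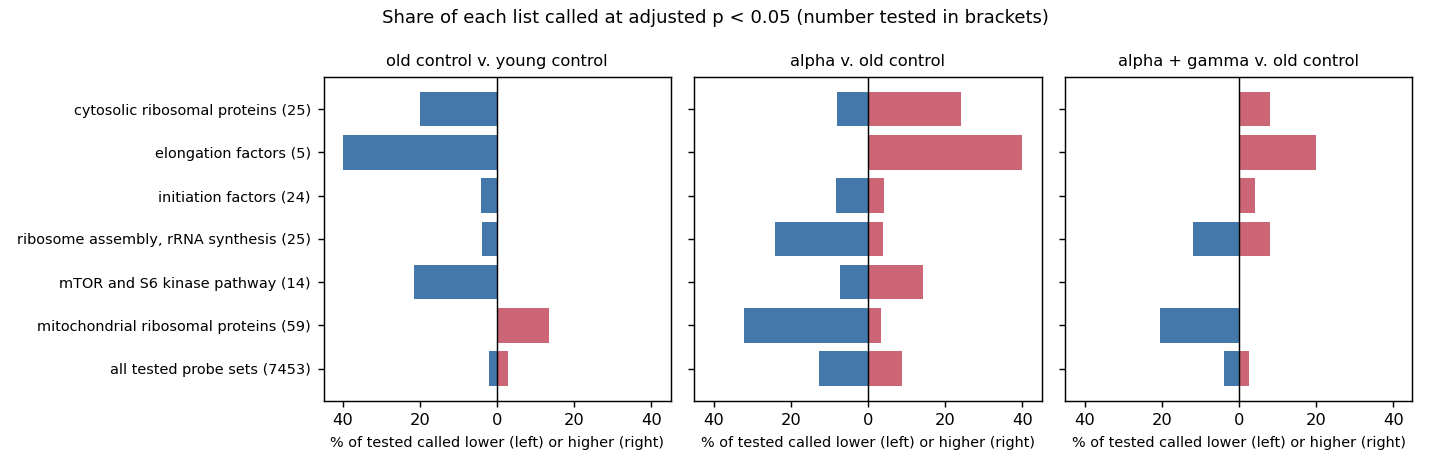
Share of the tested genes of each list called higher (to the right) or lower (to the left) at an adjusted p below 0.05, in percent, in 3 comparisons, with the share over all 7453 tested probe sets at the bottom. Cytosolic ribosomal protein genes show 20% lower with age, 24% higher and 8% lower with alpha-tocopherol, a split that was 3 higher and 4 lower genes under quantile normalization, and 8% higher with mixed tocopherols.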

How the data were processed

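The authors deposited a linear, 1-colour intensity for each of 12488 probe sets on 20 arrays; the software and the scaling behind them are not given in the sources used here. The deposited arrays shared, as the values show, a mean intensity of 1501 with 2% of values left out at each end, and that scaling was kept. Probe sets were named from the platform annotation, and all 35 members matched RefSeq gene identifiers with the same symbol. After removal of 66 controls and of the 40% of remaining probe sets with the lowest means, 7453 were tested. Group means over 20 arrays were fitted to log2(intensity + 58) with limma 3.58.1 (R 4.3.3), using a variance trend, robust moderation, 2-sided tests and Benjamini-Hochberg adjustment over all of them, with calls below 0.05. The offset understates folds of dim probe sets. Errors are standard errors with 5 animals per group; the number of arrays limits the precision, at a median standard error of 0.18. Array measures were compared by exact permutation, which cannot go below 0.0079 for 5 against 5. The fit was tested on simulated data with independent noise in each probe set and changes set in old controls alone. That simulation held no level shared by a whole array. It therefore cannot show whether the higher control readings of the alpha-tocopherol arrays affect the calls.

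The members, gene lists and tests were chosen with earlier results of these data known. Named were the called members of each comparison, up to 8 by adjusted p, or the 3 lowest p-values where fewer than 3 were called; the stalk proteins, Rpsa, Rps6, Rpl3 and paralog pairs where measured singly; the members of highest and lowest spread; and up to 3 called genes per list. Members named beyond this rule (Rps28, Rps3, Rpl6 and Rpl13a with age, Rps4x and Rps7 with alpha-tocopherol, Rpl13a with mixed tocopherols, Rps18 between the supplements) were chosen after their values were seen. Nothing in the labels says that sample numbers pair animals, and deviations of same-numbered animals from group means correlated at -0.08 to 0.10. Alternatives were other offsets, filters and scalings, other variance settings, array weights, the compared groups alone, a replicate block, covariates, omitted animals, averaged probe sets and the exclusion of diverged paralogs.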

Additional observations from a re-analysis of the deposited data

Results flagged for a closer look

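In 8 of 112 groups of 5 examined (members and array measures), the highest or lowest heart was separated from its nearest neighbour by more than 0.71 of the group's range, which chance gives in about 1 of 20 groups. Young control 3 was the highest of its group for Rpl10a (14.13, gap share 0.882), for Rpl13a (10.37, 0.723) and for the median of all members (0.29, 0.748). It was also the heart with the high T cell and B cell markers. Old control 3 was lowest for Rpl6 (13.81, 0.72), and old control 5 was highest for Rps7 (14.85, 0.79). Among mixed-tocopherol hearts, animal 3 was highest for Rpl7 (14.63, 0.759). Animal 5 was lowest for Rplp0 (15.23, 0.78) and for the hybridization controls (12.39, 0.763). The part of the cell markers and control levels in these values was not tested.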

How the results depend on the processing

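The reported counts of called members (5 with age, 8 with alpha-tocopherol, 2 with mixed tocopherols and 0 between the supplements) were recomputed under 16 settings and without each of 20 animals. Gene by gene, calls were followed over 14 of the 16 settings and the 20 omitted animals. Averaged probe sets and the exclusion of diverged paralogs were not among these fits. Called members lost their call in 71 of 170 such fits with age, 48 of 272 with alpha-tocopherol and 12 of 68 with mixed tocopherols. The named members not called between the supplements gained a call in 7 of 102. Leaving out each animal in turn gave 1 to 6 with age, 5 to 8 with alpha-tocopherol, 1 to 2 with mixed tocopherols and 0 to 1 between the supplements, whose median ran from -0.15 to -0.00073. Without a filter the counts were 2 with age and 1 with mixed tocopherols, and with the dimmest 60% left out they were 8 with age and 1 between the supplements. Quantile normalization gave 1 with age, and for alpha-tocopherol a median of 0.043 and an Rpl41 difference of -0.043. Without variance trend and robust settings the counts were 1 with age and 1 with mixed tocopherols, and in fits of the compared groups alone the count was 1 with age. Omitting old controls 1 and 4 gave 0 with age (12 at an unadjusted p under 0.05), 4 with alpha-tocopherol and 1 with mixed tocopherols. Omitting young control 3 and old control 3 gave 3 with age, 1 with mixed tocopherols and 1 between the supplements. The hybridization covariate gave 0 with alpha-tocopherol (median 0.033, Rps19 at 0.033) and 1 with mixed tocopherols, and the 18S covariate gave 0 with alpha-tocopherol. Averaging all probe sets of a gene gave 3 with age and 1 with mixed tocopherols. The omissions, both changes of the filter and the fits of the compared groups alone change how many samples or probe sets enter. The cause of the shifts was not tested. Over all tested probe sets, array weights gave 731 calls with age and 858 with mixed tocopherols, against 368 and 479.

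With the sample number as a replicate block, 4 members were called with age, 7 with alpha-tocopherol, 1 with mixed tocopherols and 1 between the supplements. The labels give same-numbered animals only a shared number, so this block is not a known pairing.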
